A study of Mus musculus with 13 samples.

Results

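The 8 BH3-only genes Pmaip1, Bbc3, Bcl2l11, Bid, Bad, Bik, Bmf and Hrk were followed in oocytes of 5-day-old (P5) female CD-1 mice after γ-irradiation of the ovary. They were taken by symbol from the 49585 genes whose transcripts were quantified, and their estimated reads were summed per gene in each of 13 libraries. Ovaries were cultured overnight and then received a γ dose of either 0.5 or 0.2 Gy, and oocyte RNA was taken at 0 h, before irradiation, and at 1, 2.5, 4 and 6 h. The 0.5 Gy series held 8 libraries, in duplicate at 0, 1 and 4 h and single at 2.5 and 6 h, and the 0.2 Gy series held 1 library per time point. CD-1 is an outbred stock, and the labels name no genetic change. According to the labels, the 0.5 Gy libraries came from a first and a second generation and all 0.2 Gy libraries from the third, so dose and generation cannot be told apart. The labels do not say that libraries of the same group came from separate animals, and p-values measure the spread between these libraries, which may be technical. Where a comparison pools time points, the spread behind its p-values and intervals also includes changes over time.

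BH3-only proteins are the sensors of the mitochondrial pathway of apoptosis. They share with the rest of the BCL2 family only a short helix, the BH3 motif, which docks into a groove of the guardians such as BCL2, BCL-XL and MCL1 and, for some of them, directly engages the effectors BAX and BAK, which then permeabilize the outer mitochondrial membrane. In resting oocytes of the primordial follicle reserve, DNA double-strand breaks activate TAp63α, a member of the p53 family, and NOXA (encoded by Pmaip1) and PUMA (encoded by Bbc3) are its best-known BH3-only targets. The other members respond to other inputs: BIM (Bcl2l11) to loss of growth factor signalling, BID to cleavage by caspases, BAD to dephosphorylation, BMF to detachment and release from the cytoskeleton, and HRK to trophic factor withdrawal in neurons.

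The coding stretch of the BH3 motif is shown because it is what makes these genes a family. It is given for 7 of the 8 members, and that of Pmaip1 is not shown here. Each line holds 39 bases of the GRCm38 annotation's longest coding sequence with the motif, and the 18 capitals mark its core, from the codon of the conserved leucine to that of the conserved aspartate.
Bbc3: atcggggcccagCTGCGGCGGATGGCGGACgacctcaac
Bcl2l11: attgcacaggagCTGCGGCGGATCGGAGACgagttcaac
Bid: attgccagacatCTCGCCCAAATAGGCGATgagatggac
Bad: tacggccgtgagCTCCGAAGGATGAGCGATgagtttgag
Bik: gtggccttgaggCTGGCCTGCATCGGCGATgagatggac
Bmf: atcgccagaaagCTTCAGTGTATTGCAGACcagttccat
Hrk: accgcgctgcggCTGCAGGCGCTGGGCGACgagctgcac
These stretches lie at chr7:16313761-16313799 in exon 3 of Bbc3 (plus strand), chr2:128147138-128147176 in exon 3 of Bcl2l11 (plus), chr6:120897289-120897327 in exon 4 of Bid (minus), chr19:6950780-6950818 in exon 3 of Bad (plus), chr15:83543072-83543110 in exon 3 of Bik (plus), chr2:118545100-118545138 in exon 4 of Bmf (minus) and chr5:118169879-118169917 in exon 1 of Hrk (plus). Among these 7, Bbc3 and Bcl2l11 were the most alike pair, with 27 of 39 identical bases, and Bid and Bik followed with 26. Bbc3 and Bik were the least alike, with 17. The pattern is loose, since 7.47% of 21901 protein-coding genes held it somewhere in a coding sequence.

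The libraries held 15709549 to 30430104 estimated reads, with the second 0 h library of 0.5 Gy the smallest. A count of 0 allows up to 3 reads, or 0.0990 to 0.192 CPM (read counts scaled to a common library size), and no member was at 0 in any library. All 12 oocyte markers were detected in every library and summed to 4036 to 5454 CPM in the early and 4292 to 4929 CPM in the late 0.5 Gy libraries. All 12 granulosa cell markers (1479 to 2266 CPM early, 1672 to 2248 late), 8 stroma and theca markers (2573 to 3686 early, 2333 to 3028 late), 4 endothelial markers (71.8 to 116 early, 50.2 to 98.2 late), 9 white blood cell markers (56.4 to 459 early, 56.5 to 90.6 late) and 5 red blood cell markers (2383 to 3525 early, 2706 to 6285 late) were detected in every library as well, so transcripts of other ovarian and blood cells were present. No gene of these lists was called late against early, but 5 of 5 red blood cell markers had a positive estimate (median log2 fold change 0.50), 7 of 8 stroma and theca markers a negative one (median -0.21) and 7 of 9 white blood cell markers a negative one (median -0.36). The neutrophil genes Camp, Ngp, S100a8 and S100a9 had -4.74, -4.40, -3.82 and -2.83, each with a 95% interval below 0. The second 0 h library of 0.5 Gy stood apart in these, with 130 CPM of S100a8 against 1.17 to 5.70 CPM in the other 7 libraries of that dose. Their part in the members' values was not tested. In such bulk samples fewer cells of a type and less RNA per cell cannot be told apart.

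The 8 genes differed far more from each other than most of them did over time. Levels between genes are compared here as TPM, which is per transcript length. Bad, whose product is held by 14-3-3 proteins while phosphorylated, had the highest TPM in each of the 13 libraries, with a median of 18.9 and a range of 12.98 to 23.1. Bid followed with a median of 3.82 TPM (1.84 to 4.61) and Bcl2l11 with 1.67 TPM (1.06 to 2.08). Bik and Pmaip1 had near-equal medians of 0.899 and 0.881 TPM, then came Bmf with 0.578, Bbc3 with 0.390 and Hrk with 0.0632.

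Of neighbours in this order, the ranges of Bad and Bid did not overlap and those of every other neighbouring pair did. Bid exceeded Bcl2l11 in 13 of 13 libraries and Bcl2l11 exceeded Bik in 12. Bik exceeded Pmaip1 in only 6 of 13 libraries, Pmaip1 exceeded Bmf in 8, Bmf exceeded Bbc3 in 9 and Bbc3 exceeded Hrk in 12. Pmaip1 was the member whose place changed most, from rank 7 to rank 2 among the 8, over a range of 0.0787 to 5.06 TPM. Its share of the summed TPM of the 8 genes was 0.399% and 1.31% in the 0 h libraries of 0.5 Gy, against 5.87% (2.5 h), 4.92% and 15.0% (4 h) and 8.97% (6 h). Over the same libraries the share of Bad was 77.1% and 60.2% at 0 h and 63.8% at 6 h.

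**Figure D1:**
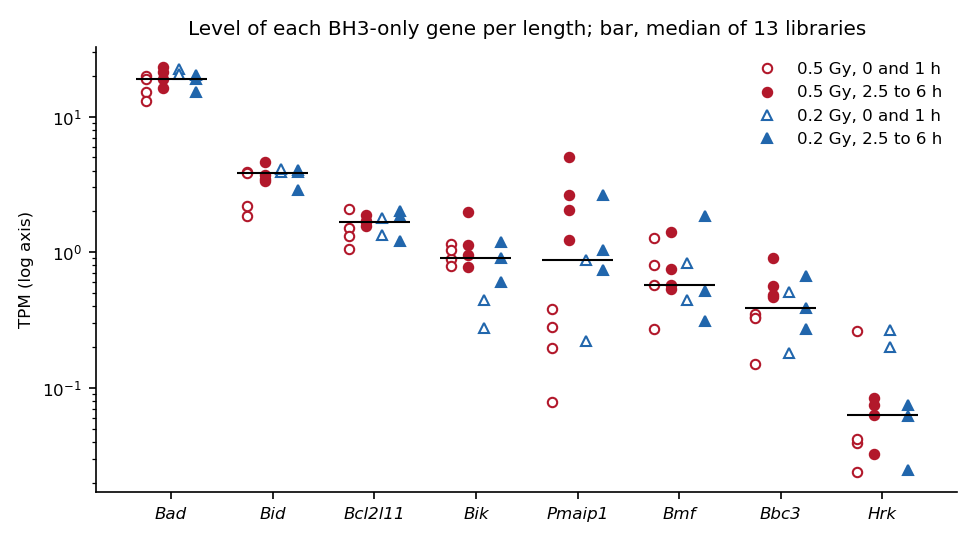
Level of each BH3-only gene in TPM (log axis) in the 13 libraries, ordered by the median (bar). Open symbols are 0 and 1 h and filled symbols 2.5 to 6 h, red circles 0.5 Gy and blue triangles 0.2 Gy. Bad has 12.98 TPM or more throughout, and the filled red circles of Pmaip1 (1.24 to 5.06 TPM) lie above its open ones (0.0787 to 0.382 TPM).

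Pmaip1 (chr18:66458533-66465565, plus strand, with a single annotated transcript), which encodes NOXA, a protein that mainly neutralizes MCL1, showed the largest rise among the members. Values over time are given as CPM after TMM normalization, which adjusts the size of each library for differences in composition. At 0.5 Gy, Pmaip1 had 0.889 and 2.38 CPM at 0 h (22 and 36 reads), 3.79 and 1.78 CPM at 1 h (93 and 47 reads), 16.4 CPM at 2.5 h (432 reads), 11.7 and 47.0 CPM at 4 h (301 and 1219 reads) and 21.0 CPM at 6 h (556 reads). The 4 late libraries (2.5, 4 and 6 h) all lay above the 4 early ones (0 and 1 h), and the replicates at 4 h, which were 11.7 and 47.0 CPM, lay farther apart than the 2.5 h library lay from the 6 h library. The mean was 24.04 ± 15.8 CPM (SD, n = 4) late against 2.21 ± 1.22 CPM (SD, n = 4) early, 10.9-fold higher. The SDs include changes over time, since each side pools time points.

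Bbc3 (chr7:16308393-16318205, plus strand), which encodes PUMA, the BH3-only protein that binds all main guardians, was low and showed the second largest difference of the 8. It had 1.37 and 0.793 CPM at 0 h, 0.448 and 1.36 CPM at 1 h, 3.41 CPM at 2.5 h, 1.59 and 2.24 CPM at 4 h and 2.31 CPM at 6 h of 0.5 Gy. All 4 late libraries lay above all 4 early ones here as well, with the highest value at 2.5 h, but the gap between the groups, from 1.37 to 1.59 CPM, was narrow. These values rest on 11 to 36 reads in the early and 41 to 90 in the late libraries. The mean was 2.39 ± 0.755 CPM (SD, n = 4) late against 0.994 ± 0.454 CPM (SD, n = 4) early, 2.40-fold higher.

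Pmaip1 and Bbc3 were the 2 of 8 members whose late libraries all lay above the early ones, and among all 22588 genes tested 3.18% did so. All 8 members passed the filter on low counts. No member had all late libraries below the early ones, against 2.04% of all genes tested.

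**Figure D2:**
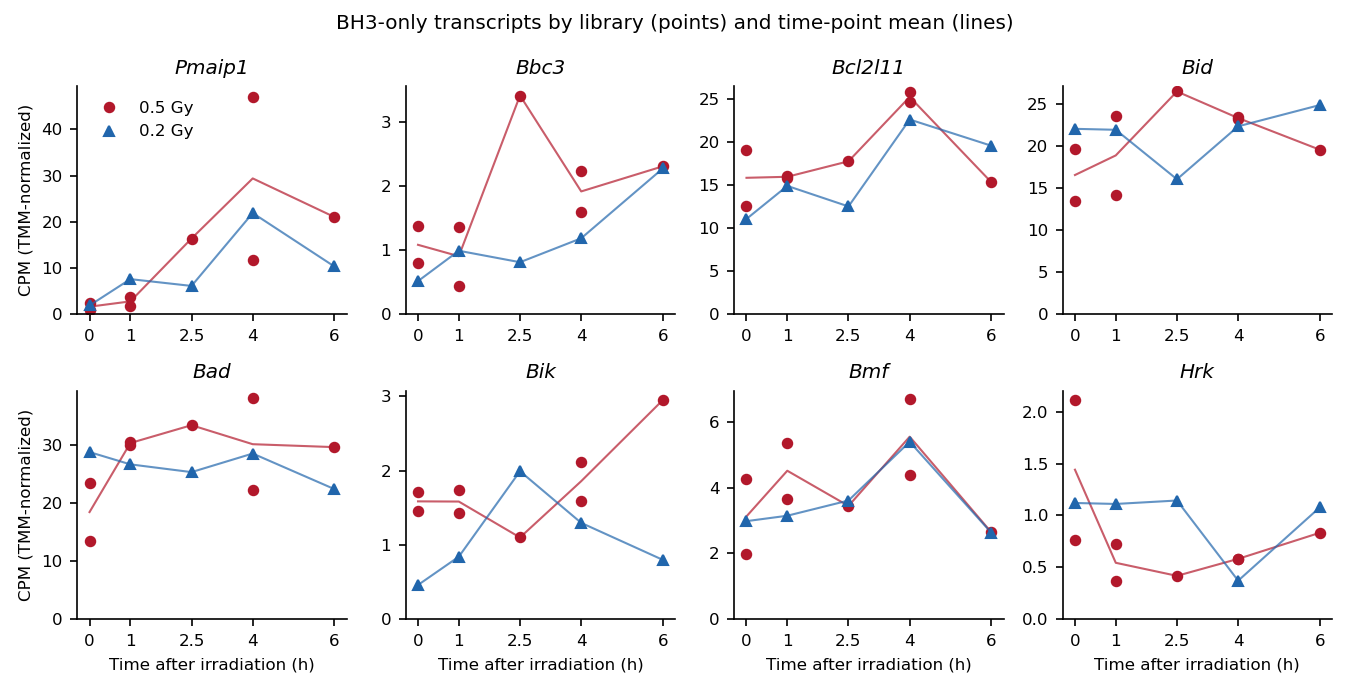
CPM of the 8 BH3-only genes against time after irradiation in h, with 1 point per library (red circles 0.5 Gy, blue triangles 0.2 Gy) and lines through the means of the time points. Each panel has its own axis from 0. Pmaip1 goes from 0.889 and 2.38 CPM at 0 h to 21.0 CPM at 6 h of 0.5 Gy, whereas the points of Bid, Bad and Bmf at different times overlap.

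In the edgeR quasi-likelihood test of late against early libraries at 0.5 Gy, Pmaip1 was the only member of 8 called, with the limits of 0.05 for the adjusted p and 1 for the size of the log2 fold change, among 0.128% of all 22588 genes called higher and none called lower. Its log2 fold change was 3.42 (SE 0.51, 95% interval 2.30 to 4.54, adjusted p = 0.0301). The cut between 1 and 2.5 h falls where the study, from these same libraries, reports its main change. This call and the separation of late from early libraries are therefore not independent of that result. The call stood close to the threshold, although each estimate kept its direction: it was lost without the first (3.16, adjusted p = 0.0770) or second 0 h library (3.47, adjusted p = 0.135), the second 1 h (3.33, adjusted p = 0.0869), the 2.5 h (3.57, adjusted p = 0.0603), the second 4 h (2.88, adjusted p = 0.0801) or the 6 h library (3.48, adjusted p = 0.0905). It held without the first 1 h (3.82, adjusted p = 0.0443) or the first 4 h library (3.66, adjusted p = 0.0207), and was lost when each time point counted once (3.36, adjusted p = 0.159) or with the generation as a block (3.24, adjusted p = 0.0875). With DESeq2 size factors, without the filter on low counts, with DESeq2 and with length-scaled counts the call also held.

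**Figure D3:**
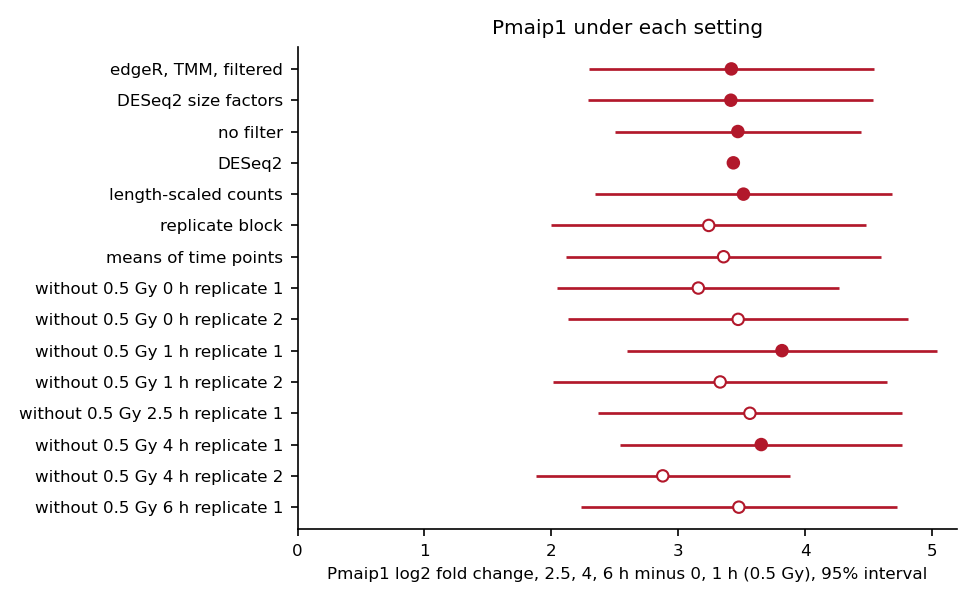
Log2 fold change of Pmaip1 between the 2.5, 4 and 6 h and the 0 and 1 h libraries of 0.5 Gy under each setting, with its 95% interval (none drawn for DESeq2). Filled points were called and open points were not, and the estimates run from 2.88 to 3.82.

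Bbc3 did not pass in this comparison: its log2 fold change was 1.24 (SE 0.47, 95% interval 0.22 to 2.25), with an unadjusted p of 0.0211 and an adjusted p of 0.469. The interval includes both a near-absent change and one of more than 2 on the log2 scale. Bcl2l11, Bid and Bad had log2 fold changes of 0.37 (95% interval -0.14 to 0.88), 0.37 (-0.13 to 0.86) and 0.32 (-0.23 to 0.88), all with an adjusted p of at least 0.664. Bik had 0.27 (-0.62 to 1.17) and Bmf 0.16 (-0.73 to 1.04). Hrk was the 1 member with a negative estimate, -0.72 (-1.96 to 0.51), and its adjusted p was 0.734. The median over the 8 members was 0.35, against -0.015 over all genes tested.

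**Figure D4:**
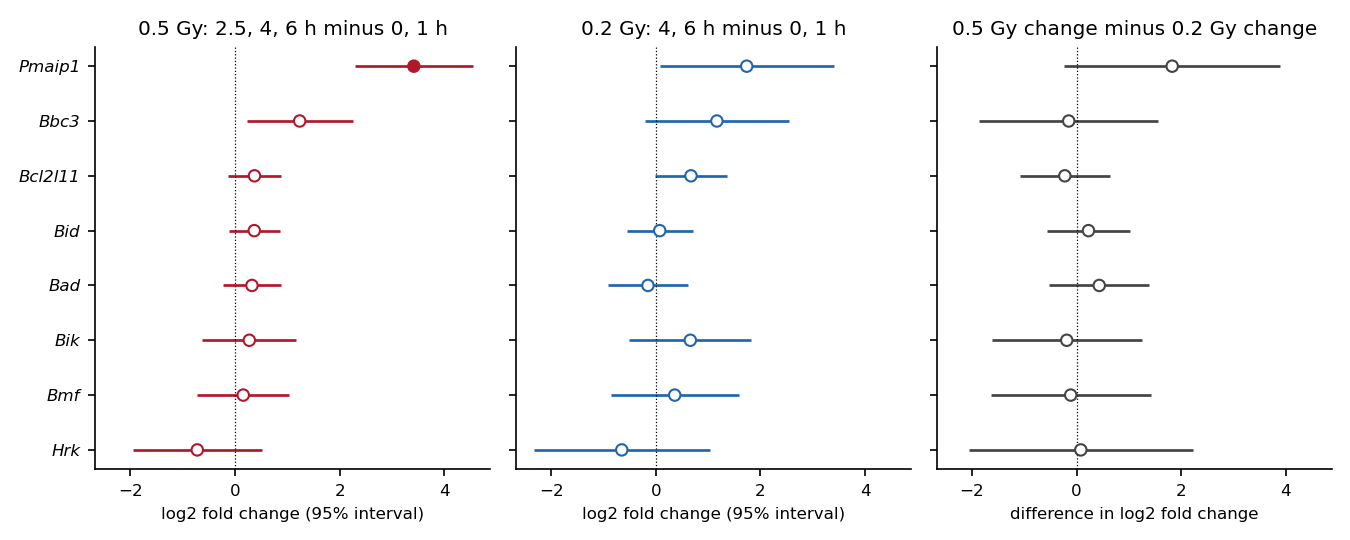
Log2 fold changes of the 8 members with 95% intervals for 2.5, 4 and 6 h against 0 and 1 h at 0.5 Gy (left), for 4 and 6 h against 0 and 1 h at 0.2 Gy (middle), and the difference between the doses in the latter contrast (right), on a common axis. The right panel is not left minus middle, since Pmaip1 at 0.5 Gy had 3.57 in the latter contrast. The filled point is the called one, Pmaip1 at 0.5 Gy (3.42), and every other interval but those of Bbc3 at 0.5 Gy and Pmaip1 at 0.2 Gy includes 0.

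Among the members that showed no called change, Bcl2l11 (chr2:128126038-128162547, plus strand) stayed at 0.5 Gy within 12.6 to 19.1 CPM in all but the 4 h libraries. It had 12.6 and 19.1 CPM at 0 h, 15.8 and 16.1 CPM at 1 h, 17.7 CPM at 2.5 h, 24.7 and 25.7 CPM at 4 h and 15.3 CPM at 6 h. Both 4 h libraries lay above all others, and the 6 h library lay among those of 0 and 1 h. The longest transcript, of 5036 bases, which holds the printed BH3 stretch, made up 32.7% to 80.7% of the gene's TPM.

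Bid (chr6:120891930-120916853, minus strand) ranged from 13.4 to 23.5 CPM in the early and from 19.5 to 26.4 CPM in the late libraries of 0.5 Gy, so the groups overlapped. Its protein-coding transcript Bid-201 made up 29.4% to 70.0% of its TPM and Bid-204, annotated as a target of nonsense-mediated decay, 24.7% to 60.2%. Neither of these transcripts led in all libraries. Bid overlaps Bcl2l13 on the other strand and shares 16.9% of its 30-base sequences with it, so its reads cannot be fully told apart from those of Bcl2l13, which had a median of 25.8 CPM.

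Bad (chr19:6941861-6951899, plus strand) ranged from 13.5 to 30.6 CPM early and from 22.2 to 38.1 CPM late. Its lowest value was in the shallow second 0 h library, and both 1 h libraries (30.6 and 30.1 CPM) lay within the late range. Bad shares 18.5% of its 30-base sequences with Gpr137, on the other strand, which had a median of 9.94 CPM.

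The remaining members had few reads, 16 to 78 for Bik, 30 to 173 for Bmf and 9 to 39 for Hrk over the 13 libraries. Bik (chr15:83526862-83544634, plus strand), whose product sits on the endoplasmic reticulum, had 1.42 to 1.74 CPM early and 1.10 to 2.95 CPM late, with the lowest value at 2.5 h and the highest at 6 h. Bmf (chr2:118528757-118549687, minus strand), whose product binds dynein light chain, had 1.98 to 5.38 CPM early and 2.65 to 6.72 CPM late, so the groups overlapped. Hrk (chr5:118164648-118189478, plus strand) had 0.768 and 2.11 CPM at 0 h, 0.367 and 0.720 CPM at 1 h, 0.417 CPM at 2.5 h, 0.583 and 0.579 CPM at 4 h and 0.832 CPM at 6 h. Hrk was high only in the second 0 h library, at 32 reads, and the other 7 libraries held 9 to 22 reads each.

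To see when the members changed, each time point of 0.5 Gy was set against 0 h in a model of the 8 libraries, in which the single 2.5 and 6 h libraries took their spread from the duplicates. These comparisons share the 0 h libraries. The log2 fold change of Pmaip1 was 0.78 (SE 0.75) at 1 h, 3.34 (SE 0.85) at 2.5 h, 4.18 (SE 0.80) at 4 h and 3.72 (SE 0.86) at 6 h. The 95% interval included 0 at 1 h (-0.91 to 2.47) and lay above it at 2.5 h (1.41 to 5.27), 4 h (2.36 to 6.00) and 6 h (1.79 to 5.66). With 1 library left out the estimates ran from 0.13 to 1.65 at 1 h, 2.74 to 4.22 at 2.5 h, 2.84 to 5.06 at 4 h and 3.13 to 4.602 at 6 h. The highest came without the second 0 h library. The lowest came without the first 1 h library at 1 h, the second 4 h library at 4 h, and the first 0 h library at the other times. Yet edgeR called 0 of 28468 genes at each of the 4 time points (0% of genes), Pmaip1 included, whose adjusted p was 0.822, 0.503 and 0.603 at 2.5, 4 and 6 h. An unadjusted p under 0.05 was seen for 1133, 1590, 1658 and 1691 of the 28468 genes at 1, 2.5, 4 and 6 h. If no gene changed, a share of about 0.05 would fall under this limit, so these are not counts of changed genes.

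DESeq2, with the beta prior that the study describes, called Pmaip1 at 2.5 h (shrunken log2 fold change 1.78, adjusted p = 0.0129), 4 h (2.52, adjusted p = 2.52e-06) and 6 h (1.98, adjusted p = 0.00209), where it called 0.0862%, 0.203% and 0.203% of all genes higher. At 1 h it called 0.0172% of all genes higher and no member. It called no other member at any time. For Bbc3 the edgeR log2 fold change was -0.27 (SE 0.71) at 1 h, 1.64 (SE 0.81) at 2.5 h, 0.81 (SE 0.70) at 4 h and 1.10 (SE 0.82) at 6 h, and each 95% interval included 0.

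The other members' estimates against 0 h were small or imprecise. Bad had 0.71, 0.85, 0.71 and 0.71 on the log2 scale at 1, 2.5, 4 and 6 h, with each interval including 0, and 0.39, 0.53, 0.38 and 0.38 without the second 0 h library. Bid had 0.18, 0.67, 0.49 and 0.26. Bcl2l11 had -0.0043, 0.15, 0.66 and -0.033, with its largest value at 4 h. Bik had -0.012, -0.53, 0.22 and 0.91, and Bmf 0.52, 0.13, 0.83 and -0.22. Hrk had -1.40, -1.78, -1.30 and -0.77, and these values leaned on the second 0 h library, without which they were -0.48, -0.85, -0.38 and 0.16.

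The lower dose was set against the same question with the 4 and 6 h libraries against those of 0 and 1 h, 2 on each side. These were fitted in the same model as the 0.5 Gy libraries of those times. The SEs, intervals and p-values therefore rest on the spread at both doses, not at 0.2 Gy alone. At 0.2 Gy, Pmaip1 had 1.90 CPM at 0 h (66 reads), 7.59 CPM at 1 h (253 reads), 6.12 CPM at 2.5 h (166 reads), 21.9 CPM at 4 h (591 reads) and 10.3 CPM at 6 h (259 reads). The 1 h value was above both 1 h libraries of 0.5 Gy, the 2.5 h value was below that of 0.5 Gy, and the 4 h value lay between the 4 h replicates of 0.5 Gy. Its mean was 16.1 CPM at 4 and 6 h against 4.74 CPM at 0 and 1 h, 3.40-fold higher, and the log2 fold change of 1.74 (SE 0.77, 95% interval 0.08 to 3.40) had an unadjusted p of 0.0418 and an adjusted p of 0.679. This estimate leaned on single libraries: it was 3.06 without the 1 h, 2.19 without the 6 h, 1.11 without the 0 h and 1.09 without the 4 h library.

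Bbc3 at 0.2 Gy had 0.517 CPM at 0 h, 0.991 CPM at 1 h, 0.812 CPM at 2.5 h, 1.18 CPM at 4 h and 2.27 CPM at 6 h, from 18 to 57 reads. Its highest value came at 6 h, where 0.5 Gy had 2.31 CPM, while the 2.5 h value was far below the 3.41 CPM seen at 0.5 Gy. The log2 fold change was 1.17 (SE 0.64, 95% interval -0.21 to 2.55, adjusted p = 0.720). Bcl2l11 had 11.1 and 14.9 CPM at 0 and 1 h against 22.6 and 19.6 CPM at 4 and 6 h, with a log2 fold change of 0.67 (95% interval -0.02 to 1.36, adjusted p = 0.686).

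Of the 8 members, 4 (Pmaip1, Bbc3, Bcl2l11 and Bid) had both late libraries above both early ones, against 21.8% of the 28162 genes tested, and Hrk alone had both below, against 25.2%. At 0.2 Gy, 10 of 12 granulosa cell markers (median log2 fold change 0.59) and 7 of 8 stroma and theca markers (0.45) had a positive estimate. So had 5 of 5 red blood cell (0.73), 6 of 9 white blood cell (0.13) and 7 of 12 oocyte markers (0.16). The endothelial markers were split, with 2 of 4 positive (-0.014). No gene of these lists was called. The 0 and 1 h libraries of 0.2 Gy also stood apart, with reads on 42402 and 42612 genes against 35827 to 39035 in the other 11 and TMM factors of 1.15 and 1.13 against 0.923 to 1.03. The part of these differences in the members' values was not tested. No member was called at 0.2 Gy, where 0.0355% of genes were called higher and 0.0107% lower, nor by DESeq2, which called 0.174% of genes higher. Bid (0.07), Bad (-0.15), Bik (0.66), Bmf (0.36) and Hrk (-0.65) each had an interval that included 0.

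The same contrast at 0.5 Gy, in the same fit, gave Pmaip1 a log2 fold change of 3.57 (SE 0.61, 95% interval 2.25 to 4.89, adjusted p = 0.0490), and it was again the only member called, with 0.124% of genes called higher and 0.00355% lower. This call was lost when 1 library was left out in 8 of 11 fits, those without either 0 h, either 1 h, the second 4 h or the 6 h library of 0.5 Gy or the 4 or 6 h library of 0.2 Gy (2.88 to 3.97, adjusted p up to 0.254). It was also lost with DESeq2 size factors (adjusted p = 0.0515), length-scaled counts (adjusted p = 0.0837) and the generation as a block (adjusted p = 0.135), and held without the filter on low counts and with DESeq2. The difference between the doses was tested as an interaction term, and no member passed, among 0.00710% of genes called with a more positive and 0.0249% with a more negative change at 0.5 Gy. For Pmaip1 the change at 0.5 Gy exceeded that at 0.2 Gy by 1.83 on the log2 scale (SE 0.95, 95% interval -0.24 to 3.90, unadjusted p = 0.0782, adjusted p = 0.640). Without the 1 h library of 0.2 Gy the difference was 0.51 and without the second 4 h library of 0.5 Gy it was 1.14.

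For Bbc3 the difference between the doses was -0.15 (95% interval -1.86 to 1.56), an interval too wide to tell a similar from an unlike response. The differences of the other members ran from -0.23 for Bcl2l11 to 0.43 for Bad. With length-scaled counts Hrk had 2.14 in place of 0.08, Bmf -1.04 in place of -0.11 and Bik -0.72 in place of -0.19, and Hrk at 0.2 Gy had -2.30, and none of these passed.

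To place the members in their pathway, lists of related genes were counted in the late against early comparison at 0.5 Gy. All 3 effectors had a positive estimate and none was called. Bax, which forms the mitochondrial pore and is itself a known target of the p53 family, had a log2 fold change of 1.10 (SE 0.24, adjusted p = 0.165), Bak1 had 0.30 and Bok 0.04. Of the 8 guardians, 6 passed the filter on low counts and 0 were called. Bcl2l1 (BCL-XL) had 0.43 and Mcl1, the main partner of NOXA, -0.27 (SE 0.15, adjusted p = 0.644). Bcl2l2 had -0.11, and Bcl2a1b had 0.66 with an SE of 0.73. The median was 0.30 for the effectors and 0.02 for the guardians.

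Of the 14 genes for proteins that hold, cleave or modify BH3-only proteins, 0 were called and 4 had a positive estimate (median -0.13). Sfn, a 14-3-3 protein and known p53 family target, was highest at 2.25 (SE 0.54, adjusted p = 0.209), while Ywhaq, another 14-3-3 protein, had -0.42, Mapk8, the kinase JNK1, -0.34 and Ppp3ca, a catalytic subunit of calcineurin, which dephosphorylates BAD, -0.31. The 6 genes of other proteins with a BH3-like motif gave 0 calls and a median of -0.14, with Bcl2l14 at -0.42 and the mitophagy receptors Bnip3 and Bnip3l at -0.29 and -0.09. Huwe1, the ubiquitin ligase of MCL1, had -0.20.

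The 10 transcription factors known to act on BH3-only genes gave 0 calls as well (median 0.15). Trp73, a p53 family member, had the largest estimate, 2.53 (SE 0.71, adjusted p = 0.322). Fos, E2f1 and Jun had -0.42, 0.26 and 0.23. The 7 genes of the apoptosome and of caspase execution gave 0 calls (median 0.11), with Cycs (cytochrome c) at -0.67, Apaf1 at 0.57, Casp9 at 0.42 and Xiap at -0.36.

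Against these lists stood the 8 classical p53 targets, of which 7 were called higher (median 2.56), where 0.128% of all genes were. At that background a list of 3 to 14 genes would seldom hold a call, so the counts of 0 above say little about those lists. The p53 targets were chosen with earlier results of these data known, and the study reports several of them as induced. Their count is therefore not independent of that choice. The target not called, Zmat3, named here after its value was seen, had 1.204 (adjusted p = 0.135). Cdkn1a, the cell cycle inhibitor p21, had a log2 fold change of 3.32 (SE 0.36, adjusted p = 0.00362), Eda2r, a death domain receptor, 3.21 (adjusted p = 0.00362), Phlda3, an inhibitor of AKT, 2.72 (adjusted p = 0.0102) and Mdm2, the ubiquitin ligase of p53, 2.63 (adjusted p = 0.00362). Pmaip1 (3.42) had a larger estimate than any of them but an SE of 0.51, and its adjusted p was larger than that of each of the 7. At 0.2 Gy all 8 of these targets had a positive estimate (median 1.59) and 0 were called.

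**Figure D5:**
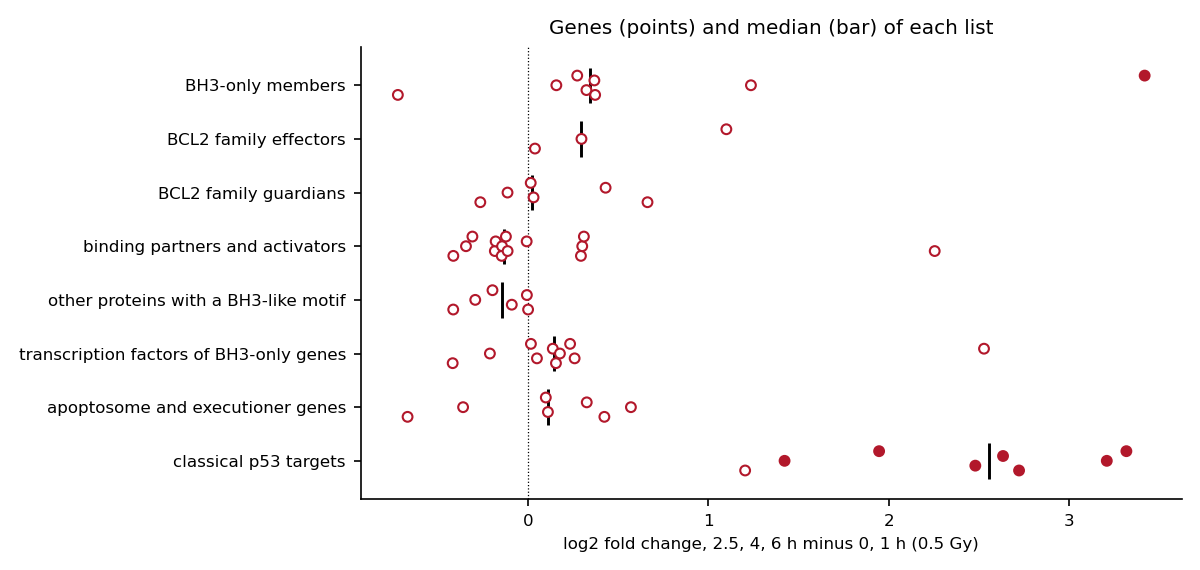
Log2 fold change between the 2.5, 4 and 6 h and the 0 and 1 h libraries of 0.5 Gy for the BH3-only genes and 7 lists of related genes, with 1 point per gene (filled where called) and a bar at the median. The called points are Pmaip1 and 7 of the 8 classical p53 targets.

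The genes whose log2 CPM followed that of Pmaip1 most closely over the 13 libraries, out of 19043 protein-coding genes, were Cdkn1a (Pearson r = 0.929), D630023F18Rik (0.926), 9930012K11Rik (0.921), Acp4 (0.914) and Ccdc88b (0.912). Cdkn1a went from 3.72 to 11.7 CPM early to 45.7 to 95.9 CPM late at 0.5 Gy, and D630023F18Rik from 0.416 to 0.733 CPM to 14.0 to 76.6 CPM. Those most like Bbc3 were Tnrc6c (r = 0.909), Kif2c (0.886), Cldn34b2 (0.886), Chka (0.885) and Sart3 (0.879). Tnrc6c had 43.6 to 51.6 CPM early and 52.5 to 69.2 CPM late. None of the 5 most like Bbc3 was among the 5 of Pmaip1, which says little, since each list holds 5 of 19043 genes. Pmaip1 and Bbc3 themselves correlated at r = 0.581. The points share time points, doses and generations, and the values describe these libraries only.

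Because Bbc3 is a textbook target of the p53 family, 1 of its 3 promoters in the table is shown, the one farthest upstream. Of the 8 members, 6 had 1 or more start sites in the RefSeq promoter table for GRCm38, 12 promoters in all, and each holds 250 bases before and 50 after the start. The 300 bases at chr7:16309333-16309632 (plus strand), with the best match to 2 adjoining p53 family half-sites in capitals, read as follows.
Bbc3 promoter: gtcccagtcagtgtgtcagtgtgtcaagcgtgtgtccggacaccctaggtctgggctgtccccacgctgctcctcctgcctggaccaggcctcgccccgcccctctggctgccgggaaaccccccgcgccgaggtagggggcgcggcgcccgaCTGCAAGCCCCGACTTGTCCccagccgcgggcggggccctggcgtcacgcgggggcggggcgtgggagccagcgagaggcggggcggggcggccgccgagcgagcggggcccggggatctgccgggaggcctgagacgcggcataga
The stretch lies 97 to 78 bases before the start and has 3 mismatches to the full p53 family site, searched as 2 half-sites of 10 bases, which read the same on both strands, up to 13 bases apart. The other Bbc3 promoters, at chr7:16310011-16310310 and chr7:16310181-16310480, had best matches with 3 and 6 mismatches. A full site with at most 3 mismatches stood in 6 of the 12 member promoters and in 45.1% of all 32851 promoters, and one with at most 2 in 0 of the 12 and in 10.1% of all. An exact half-site stood in 1 member promoter, of Bmf, and in 8.36% of all. The limit of 3 was chosen after the Bbc3 sequence was seen.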

How the data were processed

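RNA of oocytes from P5 mouse ovaries was sequenced as short reads in 13 libraries, which the series' design text calls single-end and the labels and methods paired-end. The authors estimated counts and TPM per transcript with salmon against the Ensembl transcripts of GRCm38 and deposited both unfiltered and unnormalized. Other deposited tables hold the authors' DESeq2 comparisons and merged values and were not used. The submitters' processing notes also name DESeq2 1.24.0.

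For each gene of the GENCODE annotation, the estimated counts of its transcripts were added up and then rounded, and so was TPM without rounding. A further 402 transcripts, with up to 0.495% of a library's reads, had no gene there. Gene sums were tested, after TMM normalization and filterByExpr, with edgeR's quasi-likelihood method (edgeR 4.0.16, limma 3.58.1, R 4.3.3), two-sided, with Benjamini-Hochberg adjustment over all genes tested. A call needed an adjusted p below 0.05 and a log2 fold change beyond 1 in size. The 95% intervals use the moderated degrees of freedom, and log2 CPM used a prior count of 2. Alternatives were DESeq2 1.42.0, its size factors, no filter, length-scaled counts, means of time points, the generation as a block and fits without 1 library. Tables and plots were made with pandas 2.3.3, numpy 2.4.6 and matplotlib 3.10.9 in Python 3.11.15. The main fits were also run on simulated counts. A minimum number of recovered genes was required only for late against early and for the 4 and 6 h contrast at each dose. None was required for the time points against 0 h or for the difference between doses.

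Named genes were the 8 members, at most 4 genes per list by absolute fold change, and the 5 protein-coding genes most like Pmaip1 and Bbc3. The members and lists were chosen with earlier results of these data known. The cut between early and late libraries falls where the study reports its main change in these data. Limits on counts of 0 cover counting error only.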

Additional observations from a re-analysis of the deposited data

Results flagged for a closer look

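The 2.5 h library of 0.2 Gy entered no comparison, since the contrast at that dose used the other 4 libraries. In that 2.5 h library 2 of the 8 members lay above all 3 libraries of 0 h. The share of all genes that did so was not counted, so this count is not read as a result about the members. Pmaip1 had 6.12 CPM in that library, above the 0.889 to 2.38 CPM of the 0 h libraries. This was below the 16.4 CPM at 2.5 h of 0.5 Gy and the 7.59 CPM at 1 h of 0.2 Gy. Bik had 1.99 CPM from 54 reads, above the 0.459 to 1.72 CPM of the 0 h libraries, while the 2.5 h library of 0.5 Gy held 1.10 CPM. The other 6 members, Bbc3 among them at 0.812 CPM, lay within the range of the 0 h libraries. These are values of a single library without a test.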

How the results depend on the processing

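Of the 8 members, only Pmaip1 crossed the threshold under any alternative. Late against early at 0.5 Gy, 29 genes and 1 member were called by edgeR, against 58 genes without the filter on low counts, 251 with DESeq2, 18 with the replicate block (0 members), 13 with means of time points (0 members) and 10 to 37 genes with 1 library left out (0 to 1 members). Against 0 h, where edgeR called 0 genes at each time, the unfiltered fit called 30, 56, 80 and 78 genes at 1, 2.5, 4 and 6 h and DESeq2 20, 83, 125 and 138, with 1 member, Pmaip1, at 2.5, 4 and 6 h in both, while the block gave 0, 1, 6 and 7 genes and fits without 1 library 0 to 4, 0 to 7, 0 to 10 and 0 to 6. At 0.2 Gy the 13 calls became 32 without the filter, 147 with DESeq2 and 1 to 18 with 1 library left out. For 4 and 6 h at 0.5 Gy the 36 calls became 252 with DESeq2, 20 with length-scaled counts and 11 to 49 with 1 library left out (0 to 1 members), and 0 members were called with DESeq2 size factors, length-scaled counts or the block. The 9 genes that differed between doses became 22 without the filter, 134 with DESeq2 and 0 to 13 with 1 library left out. The causes were not tested.

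With the replicate block Pmaip1 had a log2 fold change of 3.24 (adjusted p = 0.0875) late against early and 3.36 (adjusted p = 0.135) in the 4 and 6 h contrast at 0.5 Gy. The deviations of the same-numbered libraries correlated at 0.131 between 0 and 1 h, 0.0808 between 0 and 4 h and 0.110 between 1 and 4 h, and the labels do not say that a generation was a batch, so the numbers were not taken to pair the libraries. In the study's listing of mapped reads some libraries of the first and second generation appear exchanged relative to the deposited files, so the block may join the wrong libraries.

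No called value turned its sign, and the estimates that did were not called. Bmf became -0.014 with means of time points late against early, -0.27 with length-scaled counts for 4 and 6 h at 0.5 Gy, and 0.28 with length-scaled counts and 0.23 with the block at 6 h. Bcl2l11 became 0.042 without the filter and 0.020 with the block at 1 h and 0.0092 without the filter at 6 h, and Bik 0.031 without the filter at 1 h. The difference between doses became 0.051 for Bbc3 with length-scaled counts and 0.0058 for Bmf with the block. With 1 library left out, log2 fold changes that changed sign ran, late against early, from -0.00097 to 0.47 for Bik and -0.14 to 0.36 for Bmf. At 1 h they ran from -1.30 to 0.31 for Bbc3, -0.30 to 0.36 for Bcl2l11, -0.25 to 0.51 for Bid and -0.18 to 0.14 for Bik. At 2.5 h they ran from -0.15 to 0.52 for Bcl2l11 and -0.29 to 0.76 for Bmf, at 4 h from -0.0056 to 0.41 for Bik, and at 6 h from -0.33 to 0.33 for Bcl2l11, -0.021 to 0.59 for Bid, -0.65 to 0.40 for Bmf and -1.35 to 0.16 for Hrk. At 0.2 Gy they ran from -0.35 to 0.022 for Bad and -0.26 to 0.80 for Bmf, and for 4 and 6 h at 0.5 Gy from -0.15 to 0.53 for Bmf and -0.85 to 0.13 for Hrk. Between doses they ran from -0.69 to 0.39 for Bbc3, -0.68 to 0.24 for Bik, -0.55 to 0.53 for Bmf and -0.45 to 1.03 for Hrk. Where a side kept 1 library, it was assumed to vary like the others. Bbc3, Bik and Hrk had 9 to 90 reads, and the part of depth in their values was not tested.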
